A study of Caenorhabditis elegans with 25 samples.

Results

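The transcripts described here are 300 gene identifiers of the nematode Caenorhabditis elegans that had more RNA in M+P- than in M+P+ offspring germlines. Levels are given as CPM, counts per 1000000 gene counts of a library, which is not divided by transcript length. An identifier was a member when its mean over the 2 M+P- libraries was at least 5 CPM and its lower M+P- library held at least 1.5 times the CPM of its higher M+P+ library. The 6 vit identifiers, which encode yolk proteins, were left out. Of 45461 identifiers 376 met this rule, and the 300 with the highest ratio of group means, after 0.5 CPM was added to each mean, were taken. The members were thus chosen by their CPM in these 4 libraries, and their difference between M+P- and M+P+ germlines is a description here and was not tested.

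M+P- and M+P+ offspring (2 libraries each) were XX hermaphrodites of the same genotype, homozygous for mes-3 and for fem-2. They came from strain SS1167, which carries fem-2(b245ts) and the allele mes-3(bn35) over the hT2-GFP balancer. Their mothers were feminized mes-3/hT2-GFP; fem-2 worms in both cases. M+P- fathers were mes-3; fem-2 males, which were homozygous for mes-3(bn35), whereas M+P+ fathers carried the hT2-GFP balancer in place of one mutant copy. The question of this cross is what the offspring germline transcribes when the father could not make the histone mark H3K27me3. The other groups were mes-3 male germlines (3 libraries) and mes-3 sperm (3), from mes-3/mes-3 males of heterozygous SS818 mes-3(bn35)/hT2-GFP parents. Their references were him-8 male germlines (4) and him-8 sperm (3), from strain CB1489 him-8(e1489). N2 male germlines (2), fem-2 oogenic germlines (3, strain DH245 fem-2(b245ts)) and N2 oogenic germlines (3, wild type) completed the set. Males were XO and hermaphrodites XX. Germline samples were distal gonad arms of day 1 adults cut at the bend where late pachytene nuclei lie, and so can hold some somatic cells.

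MES-3 is a subunit of the worm Polycomb repressive complex PRC2, which trimethylates histone H3 on lysine 27 and so marks silent chromatin. In the worm germline this mark is dense on the X chromosome, whose genes are mostly silent in the male germline and expressed late in oogenesis. Loss of maternal MES proteins is known for germ cell death and for X-linked transcripts that appear in the germline. The mark is carried on sperm chromosomes into the embryo, so a father without PRC2 passes on unmarked chromosomes while the mother's copies stay marked.

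Library totals ranged from 1078195 to 18617543 gene counts, and from 5462176 to 6750907 in the 4 offspring libraries. A count of 3, the floor under which a level cannot be told from 0, was worth 0.161 to 2.78 CPM. The libraries were made in 7 runs by the tags in their names: the 4 offspring libraries shared 1 run, whereas all mes-3 male libraries came from a different run than all him-8 male libraries, and there genotype cannot be told apart from run. Oogenic germline markers were plentiful in the offspring, at 6825 and 7711 summed CPM in M+P- germlines, against 8030 and 8211 in M+P+ germlines. Library 2 of the him-8 male germlines stood apart: its 10 body wall muscle markers summed to 3423 CPM, against 142 to 177 CPM in the other him-8 male libraries. Levels in that library are named below where they decide a value. In the sperm libraries the same markers summed to 2724 to 5311 CPM in mes-3 and 2394 to 6503 CPM in him-8, so muscle RNA was present in both genotypes.

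The 300 members had a median ratio of group means of 2.80, from 2.09 to 17.6, with 124 members at 3 or more and 28 at 5 or more. By the same rule turned round, 103 identifiers were higher in M+P+ than in M+P- germlines, 1.36% of the 7559 that reached 5 CPM in M+P+. For the rule itself 4.78% of the 7867 identifiers at 5 CPM or more in M+P- met it. Across all identifiers edgeR called none in M+P- against M+P+ at an adjusted p under 0.05 (0 of 11962 tested, a background of 0% in each direction). At an unadjusted p under 0.05 there were 1244, and DESeq2 called 134. With 1 library left out edgeR called 23 to 583, the most without M+P- library 2. The members just inside the ratio of 1.5 were mdl-1, F54B11.5 and D1025.1, all at 1.51. Just outside it were sec-16A.2, nac-2 and skr-3, all at 1.5 after rounding, and the last members inside the limit of 300 were mml-1, AC8.10 and tni-4.

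The 2 libraries of a group differed from each other in a shared direction. M+P- library 1 was above M+P- library 2 for 245 of 300 members, with a median ratio of 1.40 between them. M+P+ library 1 was above M+P+ library 2 for 221 members, with a median ratio of 1.36. Over all 7867 identifiers these medians were 1.03 and 1.02. The spread was not confined to the members, since the 676 X-linked identifiers at 5 CPM or more that are not members had medians of 1.74 in M+P- and 1.58 in M+P+. The members are thus those for which the weaker M+P- library was still 1.5 times the stronger M+P+ library.

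Chromosome was not part of the rule. The X chromosome carried 112 members, or 37.3% of them, whereas 10% of the 7867 identifiers at that level are X-linked. Put the other way, 14.2% of the 788 X-linked identifiers were members, against 2.67% of the 6961 autosomal ones. Chromosome II carried 50 members, V 46, I and IV 34 each and III 22, and 2 identifiers matched no current gene. Among the autosomes the share of identifiers that were members ran from 1.43% on III to 3.86% on V. Of the 103 identifiers higher in M+P+, 5 were X-linked. The X-linked members sat within a broader difference: the median ratio of M+P- to M+P+ over all X-linked identifiers at this level was 1.85, and over the autosomal ones 1.04.

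**Figure D1:**
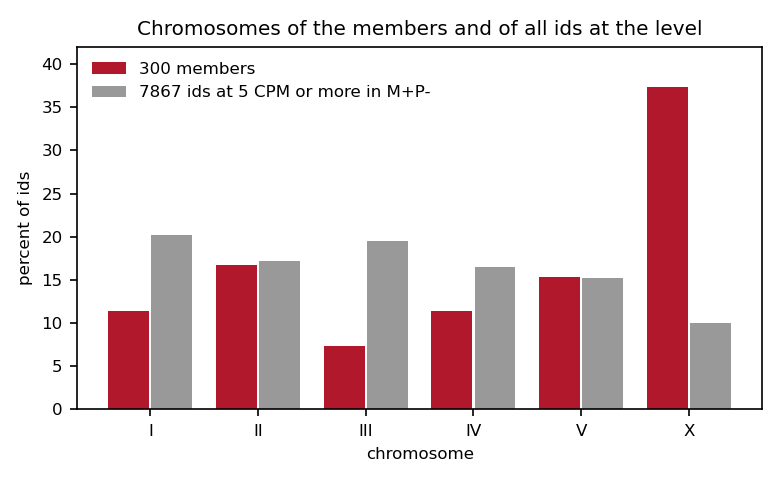
Percent of the 300 members (red) and of the 7867 identifiers at 5 CPM or more in M+P- germlines (grey) on each chromosome. The X chromosome holds 37.3% of the members and 10% of the identifiers at that level.

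Before the members are taken up singly, their summed level in each library shows where their RNA was found. The X-linked members summed to 4564 and 2825 CPM in M+P- germlines, against 1505 and 879 CPM in M+P+ germlines. The normal oogenic level was 860 to 1083 CPM in fem-2 and 799 to 981 CPM in N2 libraries, so 1 of the M+P+ libraries lay within the oogenic range and the other above it. In male germlines the same members summed to 109 to 162 CPM in mes-3 libraries and to 130.2 to 140.3 CPM in 3 of 4 him-8 libraries. The him-8 library that stands apart had 1141 CPM and the N2 males 607 and 264 CPM. Sperm held more of these transcripts, 2125 to 2473 CPM in mes-3 and 1565 to 1676 CPM in him-8. A large part of the sperm sums in both genotypes was a single transcript, tts-1, whose levels are given below.

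The autosomal members had a different order of groups. They summed to 4674 and 3491 CPM in M+P- germlines, against 1572 and 1102 CPM in M+P+ germlines, and to 737 to 863 CPM in fem-2 and 656 to 960 CPM in N2 oogenic germlines. Both M+P+ libraries were above all 6 oogenic libraries. Male germlines had 3013 to 3441 CPM in mes-3 and 2115 to 4459 CPM in him-8, where library 2 alone held the 4459 CPM and the other 3 had 2115 to 2775 CPM, below every mes-3 library. Sperm had 6665 to 7782 CPM in mes-3 and 6269 to 6683 CPM in him-8. Single transcripts weigh in these sums: cdh-5 alone had 823, 908 and 1320 CPM in mes-3 sperm.

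**Figure D2:**
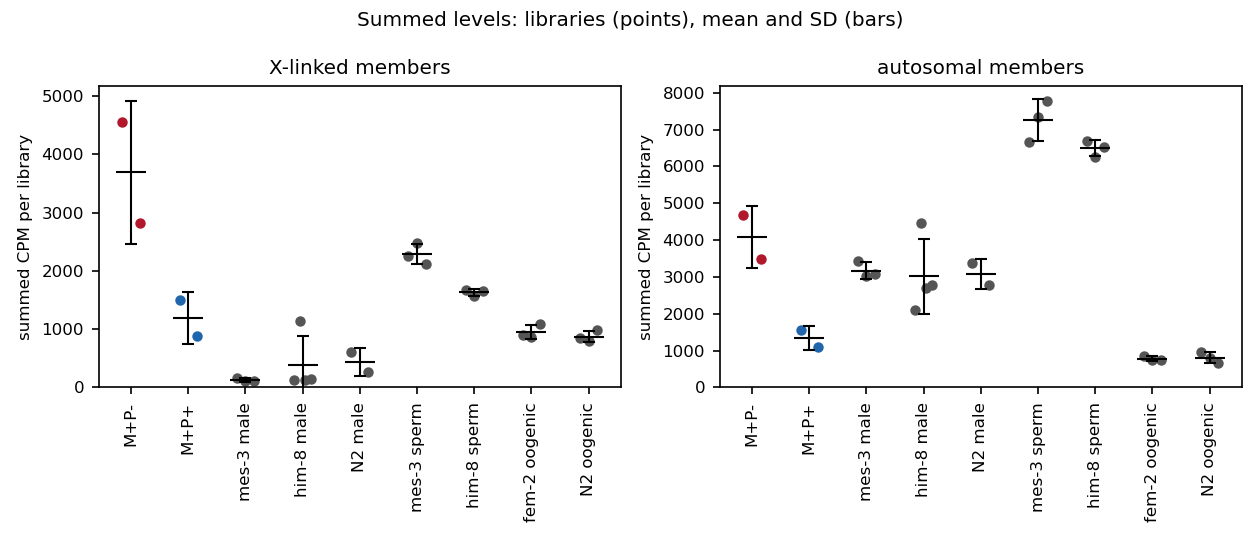
Summed CPM per library of the X-linked (left) and autosomal (right) members. Points are libraries (M+P- red, M+P+ blue, other groups grey) and bars give mean and SD. Both sums are higher in M+P- than in M+P+ germlines, as the rule fixes, and the autosomal sum reaches 7782 CPM in sperm.

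By median over members, which no single transcript decides, an X-linked member had 20.9 CPM in M+P- germlines, 6.92 CPM in M+P+ germlines and 5.91 CPM in oogenic germlines. An autosomal member had 12.6 CPM in M+P-, 3.99 CPM in M+P+ and 1.25 CPM in oogenic germlines. In male germlines the X-linked median was 0.49 CPM in mes-3, 0.60 CPM in him-8 and 0.89 CPM in N2. The autosomal median was 1.96 CPM in mes-3, 0.86 CPM in him-8 and 1.02 CPM in N2. By group mean, 86 of 112 X-linked members were under 1 CPM in mes-3 male germlines, 70 in him-8 and 60 in N2. The 676 X-linked identifiers that are not members had medians of 0.69, 0.93 and 1.19 CPM in these groups and 8.43 CPM in oogenic germlines. In both N2 male libraries and him-8 male library 2 a count of 3 was worth 1.18 to 1.62 CPM, more than 1 CPM. Of the autosomal members 85 of 186 had a mean under 1 CPM in normal oogenic germlines, against 16 of 112 X-linked members.

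M+P- germlines had the highest mean of all 9 groups for 231 members (77.0%), where 37.9% of the identifiers at this level had theirs there. The rule took members for high M+P- values, so this share is a description and nothing is read from it. For the others the highest mean lay in mes-3 sperm (41), him-8 sperm (15), fem-2 oogenic (5), mes-3 male (4), N2 oogenic (2), him-8 male (1) or N2 male germlines (1). With the offspring left aside, 116 members were highest in mes-3 sperm, 66 in fem-2 oogenic germlines, 51 in him-8 sperm, 36 in N2 oogenic, 27 in mes-3 male and 2 each in him-8 and N2 male germlines.

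**Figure D3:**
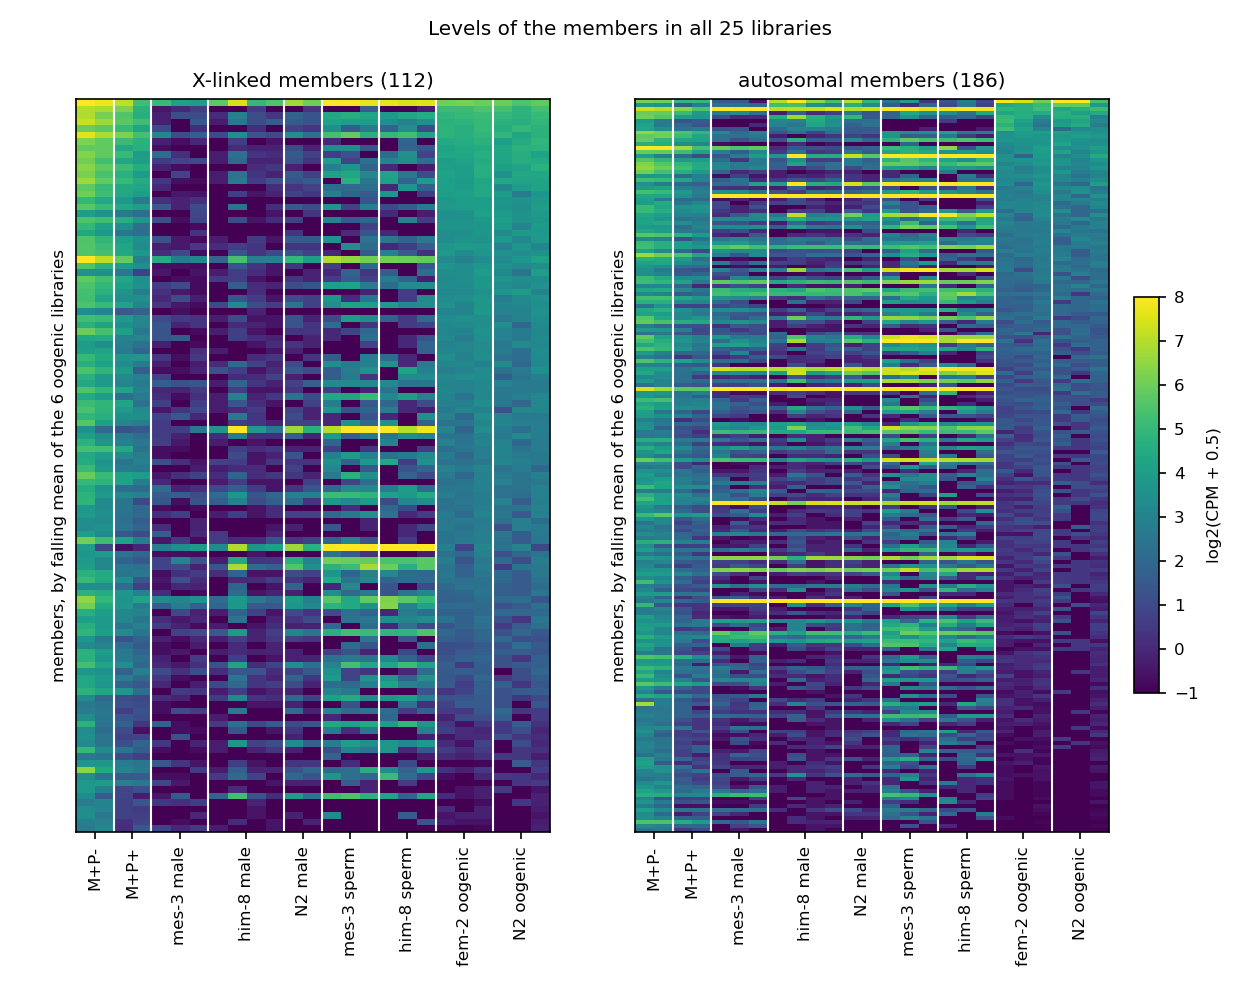
Level of each member as log2(CPM + 0.5) in all 25 libraries, X-linked left and autosomal right, with rows ordered by their mean in the 6 oogenic libraries. X-linked rows are dark in the 3 male germline groups. A band of autosomal rows is dark in oogenic germlines and bright in male germlines and sperm.

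Both M+P- libraries lay above all 6 normal oogenic libraries for 282 members (94.0%), where 43.2% of all identifiers at this level did so. The members were chosen for high values in these M+P- libraries, so nothing is read from this share. For M+P+ this held for 143 members (47.7%), against a background of 33.8%, and 14 members lay below all 6 oogenic libraries, 4.67% against 10.4%. The remaining 143 overlapped them. The rule also bounded the M+P+ values from above, so these shares are a description too. Markers of other cell types did not all move the same way in this comparison. Body wall muscle markers summed to 147 to 175 CPM and somatic gonad markers to 68.4 to 69.0 CPM in M+P+, against at most 135 and 51.9 CPM in the oogenic libraries. Neuronal markers were at 104 to 150 CPM in M+P+ and at most 100.4 CPM in oogenic libraries, while the oogenic germline markers were at 8030 to 8211 CPM in M+P+, against 10229 to 11025 CPM. Their part in these counts was not tested. By chromosome, M+P+ exceeded all oogenic libraries for 112 of 186 autosomal and 31 of 112 X-linked members. The background share was not split by chromosome, so nothing is read from these 2 counts. The median ratio of M+P+ to oogenic means was 2.37 for autosomal and 1.30 for X-linked members, and 1.15 over all identifiers. Among identifiers at this level that are not members it was 1.11 for autosomal and 1.60 for X-linked ones. Offspring and oogenic libraries differ in mes-3 genotype, cross and run, and may differ in growth temperature, and these cannot be told apart. In the paper, offspring of this cross that were scored for fertility grew below its standard culture temperature.

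The highest ratios rested in large part on M+P- library 1. T19D12.4, on chromosome II, led with a ratio of 17.6. It had 109.7 and 6.54 CPM in M+P- germlines, against 3.26 and 2.4 CPM in M+P+ germlines. In sperm it had 12.2 to 24.3 CPM in mes-3, against 0.51 to 20.3 CPM in him-8, which overlapped. Library 1 was at least 2 times library 2 in M+P- for 8 of the 10 members with the highest ratios.

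lgmn-1, which encodes a legumain-type protease, had 30.4 and 2.23 CPM in M+P- germlines, against 0.89 and 0.8 CPM in M+P+ germlines. tts-1, a long noncoding RNA on the X known from dauers and long-lived mutants, had 15.4 and 1.34 CPM in M+P- germlines, against 0.15 and 0.48 CPM in M+P+ germlines. Its level in mes-3 sperm, 902, 1073 and 701 CPM, and in him-8 sperm, 334, 605 and 559.6 CPM, was far above both. Normal oogenic germlines had 1.26 to 8.12 CPM (median 5.65), so M+P- library 2 did not exceed them. For these 3 members M+P- library 1 lay far above library 2, which was nearer to M+P+.

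Of the 10, tsp-1 and ttr-45 had M+P- libraries nearer to each other. tsp-1, a tetraspanin gene on III, had 6.59 and 3.57 CPM in M+P- germlines, against 0.15 and 0.16 CPM in M+P+ germlines, and no more than 0.18 CPM in any oogenic library. ttr-45, of the transthyretin-related family, had 16.3 and 8.47 CPM in M+P- germlines, against 0.89 and 1.28 CPM in M+P+ germlines. C44B7.5 on II had 37 and 11.4 CPM in M+P- germlines, against 4.15 and 1.12 CPM in M+P+ germlines, and stayed at 1 CPM or less in every library outside the offspring. It is 1 of 15 members whose mean was under 1 CPM in all 7 other groups, of which 6 are X-linked.

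The remaining members of the leading 10 were T22B7.7, F52E4.5 and rpl-11.2 on the X and Y51H4A.25 on IV. T22B7.7 had 85.9 and 21.5 CPM in M+P- germlines, against 7.7 and 5.75 CPM in M+P+ germlines, with 0 to 1.07 CPM (median 0.51) in oogenic germlines. F52E4.5 had 26.7 and 4.9 CPM in M+P- germlines, against 2.96 and 0.8 CPM in M+P+ germlines. rpl-11.2, which encodes a ribosomal protein and has the near-identical paralog rpl-11.1, had 306 and 136 CPM in M+P- germlines, against 56.6 and 7.35 CPM in M+P+ germlines. Its oogenic levels were 7.03 to 17.9 CPM (median 9.71), and reads shared with the paralog make the value uncertain. Y51H4A.25 had 17.6 and 2.67 CPM in M+P- germlines, against 0.59 and 1.6 CPM in M+P+ germlines, which again set library 1 of M+P- apart.

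The member with the highest mean CPM was casy-1, on chromosome II, which encodes calsyntenin, a cadherin-like membrane protein best known from neurons. It had 465 and 393 CPM in M+P- germlines, against 108 and 40.6 CPM in M+P+ germlines. The 6 oogenic libraries lay between 8.42 and 16.25 CPM, so each M+P+ library was above them and each M+P- library above M+P+. In male germlines it had 59.1, 41.7 and 54 CPM in mes-3, against 0.61, 2.16, 1.79 and 1.5 CPM in him-8, and N2 males had 2.36 and 3.28 CPM. The mes-3 and him-8 libraries did not overlap, and casy-1 rose in mes-3 male germlines (log2 fold change 4.92 ± 0.34 (SE), edgeR adjusted p = 8.05e-05). In sperm its values were 33.7, 24.3 and 15.7 CPM in mes-3 and 86, 2.03 and 14.3 CPM in him-8, which overlapped.

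The members named here are the 8 with the highest mean CPM, a ranking that favours long transcripts. Of the other 7, 5 are X-linked. eef-1A.2, which encodes translation elongation factor 1A and shares near-identical sequence with eef-1A.1, had 397 and 217 CPM in M+P- germlines, against 139 and 37.1 CPM in M+P+ germlines. Oogenic libraries had 43.8 to 71.5 CPM (median 61.8). M+P+ library 2 was thus below the whole oogenic range, and M+P- lay above it. puf-9, a Pumilio-family RNA-binding protein gene, had 196 and 119.5 CPM in M+P- germlines, against 73.9 and 40.3 CPM in M+P+ germlines, with 19.4 to 29.8 CPM (median 27.6) in oogenic germlines. The myotubularin-family gene mtm-5 had 150.5 and 99.5 CPM in M+P- germlines, against 51.5 and 36.9 CPM in M+P+ germlines, with 24.5 to 32.2 CPM (median 27.3) in oogenic germlines. For puf-9 and mtm-5 both offspring groups were above every oogenic library.

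meg-2, which encodes a germ granule protein, is known from oogenic germlines and embryos. It had 128 and 115 CPM in M+P- germlines, against 75.1 and 26.5 CPM in M+P+ germlines. In fem-2 oogenic germlines it had 35.3, 35.7 and 43.1 CPM and in N2 oogenic germlines 39, 27.8 and 39.5 CPM. It did not exceed 1.0 CPM in any male germline library. The M+P+ libraries fell on either side of the oogenic range, and both M+P- libraries were above it.

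The other autosomal members of these 8 were higher in male than in oogenic germlines. cdh-5 on IV, of the cadherin family, had 181 and 108 CPM in M+P- germlines, against 53.8 and 53 CPM in M+P+ germlines. It reached 657, 497 and 550.4 CPM in mes-3 and 227, 274, 355 and 416 CPM in him-8 male germlines, and oogenic libraries stayed at 1.59 to 4.64 CPM. T16G1.9 on V, whose role is not given in the annotation, had 156 and 131 CPM in M+P- germlines, against 82.5 and 44.4 CPM in M+P+ germlines. It had 328, 297 and 270.1 CPM in mes-3 and 137, 139, 147 and 190.4 CPM in him-8 male germlines. Both transcripts were above all 6 oogenic libraries in both offspring groups. cdh-5 stayed below all male germline libraries in them, while the M+P- libraries of T16G1.9 overlapped him-8 and N2 males.

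**Figure D4:**
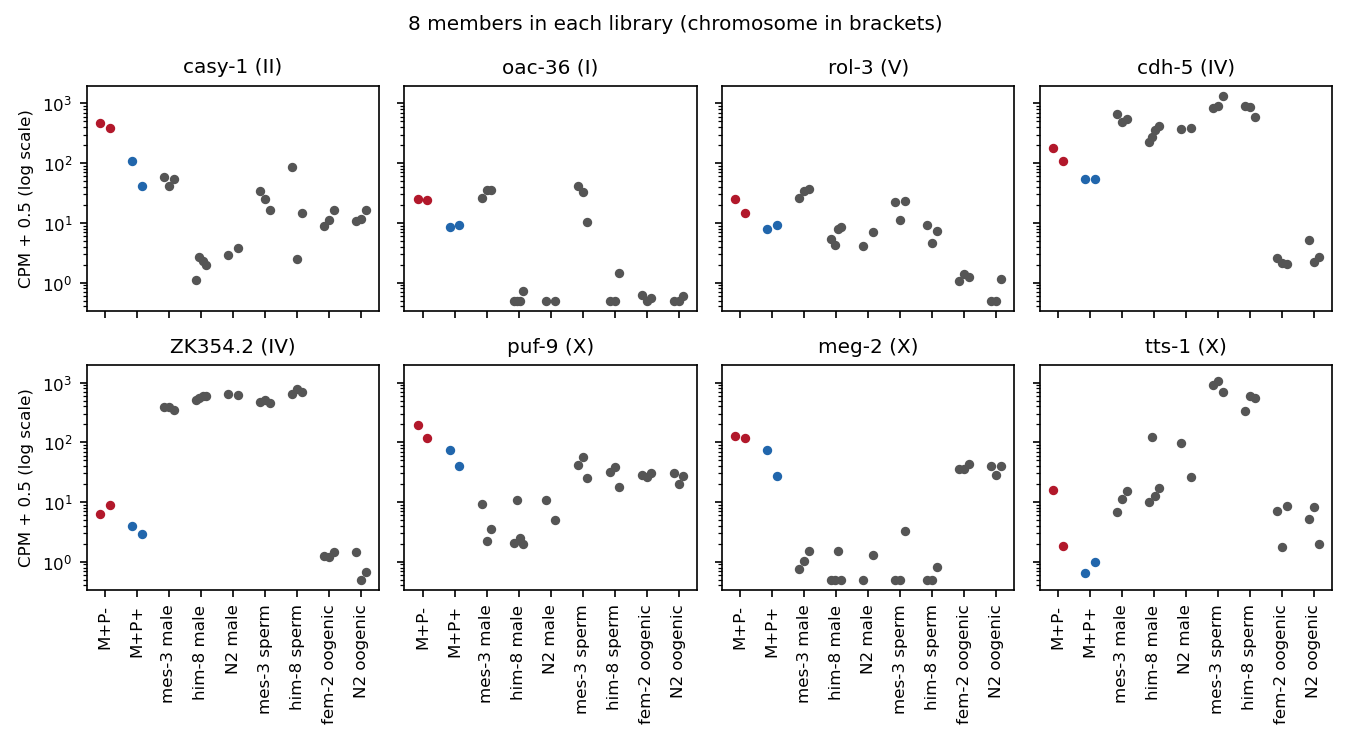
CPM plus 0.5, on a log axis, of 8 members in every library, with M+P- red, M+P+ blue and other groups grey. Points are libraries. oac-36 stays at or under 0.97 CPM in him-8, N2 and fem-2 libraries and lies at 10 to 40.6 CPM in the mes-3 male and mes-3 sperm libraries, while meg-2 stays at or under 2.81 CPM in all male and sperm libraries.

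Members that were under 1 CPM on average in oogenic germlines and at 15 CPM or more in all 3 male germline groups numbered 6, all autosomal: apm-1, clp-9, F40E12.2, F27D4.6, Y32F6A.4 and ZK354.2. apm-1, a medium-chain gene of the clathrin adaptor AP-1, had 11.4 and 13.1 CPM in M+P- germlines, against 4.15 and 3.03 CPM in M+P+ germlines. N2 and him-8 male germlines had 57.6 to 88.1 CPM (median 70.8). clp-9, a calpain-type protease gene, had 11.5 and 11.6 CPM in M+P- germlines, against 6.07 and 1.76 CPM in M+P+ germlines. In absolute terms the offspring levels of these transcripts were small. ZK354.2 had 5.68 and 8.32 CPM in M+P- germlines, against 3.41 and 2.4 CPM in M+P+ germlines, and 507 to 638 CPM (median 599) in N2 and him-8 male germlines. The spermatogenesis marker list as a whole summed to 37.3 and 37.0 CPM in M+P-, and to 39.1 and 37.7 CPM in M+P+ germlines, against 0.93 to 2.74 CPM in oogenic germlines, and it holds none of the members.

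Male germlines without mes-3 were set against him-8 controls in libraries that did not enter the rule. It asks which transcripts differ in the germline of males that lack mes-3, the genotype of the M+P- fathers at that gene. Of 300 members 97 passed the filter on low counts, 15 of them X-linked and 81 autosomal. The filter keeps members that are high in either group, so counts over those tested are a description of them and not of all members. Among the 97, 22 rose, or 22.7% of those tested, where edgeR called 12.2% of all 8930 identifiers higher. The number that fell was 9, or 9.28%, against 15.8% of all identifiers. Marker lists separated the same libraries: somatic gonad markers summed to 139 to 164 CPM in mes-3, against 60.6 to 91.8 CPM in him-8, and spermatogenesis markers to 5461 to 5858 CPM in mes-3, against 6959 to 8782 CPM in him-8. Their part in these counts was not tested. Of the 22 that rose 21 were autosomal and 1 had no current gene, and 0 of the 15 X-linked members tested rose, against 5.98% of 251 X-linked identifiers. The median log2 fold change was 0.12 over the members tested and 0.01 over all identifiers. With total-count scaling these medians were 0.34 and 0.21, and 25 members were higher and 9 lower, beside 1710 and 989 of all identifiers (1092 and 1412 with TMM scaling). Without any 1 of the mes-3 libraries 13 to 14 of 104 to 113 tested were higher, or 11.5 to 13.5%, beside 3.91 to 5.79% of all identifiers. In the same fits 5 to 6 were lower, or 4.42 to 5.77%, beside 6.41 to 9.16%. Without him-8 library 2 the counts were 32 higher and 9 lower of 99, or 32.3% higher beside 15.6% of all, and the members' median was 0.55. With only the him-8 controls of 1 run, 13 of 154 were higher and 15 lower (replicates 1 and 2), which is 8.44% higher beside 6.79% of all identifiers and 9.74% lower beside 13.4%. With replicates 3 and 4 as controls, 26 of 131 were higher and 11 lower, or 19.8% higher beside 11.6% of all and 8.4% lower beside 14.8%.

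oac-36 on chromosome I, which encodes an O-acyltransferase-like membrane protein, had the lowest adjusted p of the members. It had 26, 34.5 and 35.3 CPM in mes-3 male germlines, against 0, 0, 0 and 0.21 CPM in him-8. All him-8 libraries lay at or under 3 counts, so the difference is at least 33.8-fold, with the floor of 3 counts taken per library and its mean over the him-8 libraries (edgeR adjusted p = 7.02e-05). In the offspring it had 24.7 and 23.8 CPM in M+P- germlines, against 8.0 and 8.78 CPM in M+P+ germlines. In N2 male and oogenic germlines no library exceeded 0.11 CPM. Each of the 4 groups whose worms were mes-3/mes-3 thus held oac-36 RNA, and of the 5 others none had more than 0.97 CPM in a library.

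rol-3, which encodes a receptor tyrosine kinase-like protein, had 25.2, 33.5 and 36 CPM in mes-3, against 4.9, 3.78, 7.36 and 7.91 CPM in him-8 male germlines (log2 fold change 2.17 ± 0.28 (SE), edgeR adjusted p = 0.00169). In the offspring it had 24.3 and 14.1 CPM in M+P- germlines, against 7.26 and 8.78 CPM in M+P+ germlines, and it was at most 0.9 CPM in oogenic libraries. ZC487.1 had 5.88, 3.07 and 4.7 CPM in mes-3, against 0.31, 0, 0.4 and 0.21 CPM in him-8 male germlines (edgeR adjusted p = 0.00475). The F-box gene fbxa-64 had 16.15, 17.2 and 9.81 CPM in mes-3, against 1.23, 0, 0.99 and 2.14 CPM in him-8 male germlines (log2 fold change 3.39 ± 0.59 (SE), edgeR adjusted p = 0.00514). None of the 22 had mes-3 libraries that overlapped the him-8 libraries. Overlap was not counted over all identifiers called, so nothing particular to the members is read from this. Others that rose, chosen after their values were seen, include the muscle and neuronal transcription factor gene mef-2 (2.82 on the log2 scale), the kinesin gene unc-104 (2.03), the laminin beta gene lam-1 (2.41) and cdh-5 (0.64, a call lost without any 1 of the mes-3 libraries, with adjusted p up to 0.157).

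Of the 9 that fell in mes-3 male germlines 4 were noncoding RNAs and the others include muscle genes. The snRNA ZK897.4 was at 0, 0 and 0 CPM in mes-3, against 7.97, 7.03, 21.7 and 10.3 CPM in him-8 (0.00151, edgeR adjusted p). The snRNA F32B5.9, the snoRNA Y38F2AR.14 and the noncoding RNA F52D4.1 fell as well, with log2 fold changes of -5.88, -6.71 and -5.78. These 4 were also at 0 to 16 CPM in all 6 sperm libraries, which share the run of the mes-3 males. Copies of such RNAs are near-identical, and the part of the run in the result was not tested. ZK354.2 fell by a smaller step, at 382, 388 and 351 CPM in mes-3, against 507, 546, 601 and 596 CPM in him-8 (log2 fold change -0.80 ± 0.12 (SE), edgeR adjusted p = 0.0031). mlc-2, mup-2 and eef-1A.2, all X-linked, were called lower (edgeR adjusted p = 0.0431, 0.0491 and 0.0451), and their highest level lay in him-8 library 2, where mlc-2 had 355 CPM, against 5.56 to 14.1 CPM in the other him-8 male libraries. The calls of mlc-2 and eef-1A.2 were lost without any 1 of the mes-3 libraries.

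Sperm of mes-3 males, set against him-8 sperm, had 127 members among 8424 identifiers tested. Of these 2 rose (1.57%, background 3.22%) and 4 fell (3.15%, background 7.05%), and the 45 X-linked members tested gave 0 calls, with 2 at an unadjusted p under 0.05. Marker lists separated these genotypes too. Spermatogenesis markers summed to 6698 to 7794 CPM in mes-3, against 11335 to 12686 CPM in him-8 sperm, somatic gonad markers to 98.0 to 144 CPM, against 36.1 to 45.4 CPM, and oogenic germline markers to 1017 to 1186 CPM, against 598 to 883 CPM. Their part in these calls was not tested. DESeq2 also called 2 higher, or 0.69% of 289 tested beside 2.13% of all identifiers. It gave 6 lower, or 2.08% beside 4.53%. oac-36 had 40.6, 32 and 10 CPM in mes-3, against 0, 0 and 0.97 CPM in him-8 sperm (0.00557, edgeR adjusted p), and it was the only member called higher in both mes-3 male germlines and mes-3 sperm. ttr-45 had 34.8, 37.8 and 15.3 CPM in mes-3, against 5.09, 3.05 and 0.32 CPM in him-8 sperm (log2 fold change 3.1 ± 0.85 (SE), edgeR adjusted p = 0.0351). The libraries of the genotypes did not overlap for either gene. The call of ttr-45 was lost without any 1 library other than him-8 library 1, with adjusted p up to 0.164.

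Lower in mes-3 sperm were ZK354.2, C17C3.1, his-37 and eppl-1. ZK354.2 had 472, 505 and 457 CPM in mes-3, against 638, 788 and 698 CPM in him-8 sperm (log2 fold change -0.85 ± 0.17 (SE), edgeR adjusted p = 0.00853), so it fell in both male samples. C17C3.1 had 35.3, 47.4 and 40.2 CPM in mes-3, against 76.3, 68.5 and 101 CPM in him-8 sperm (0.0153, edgeR adjusted p). his-37, a histone H4 gene with near-identical copies, had 13.2, 3.84 and 8.84 CPM in mes-3, against 32, 42.7 and 21.4 CPM in him-8 sperm (0.0314, edgeR adjusted p). The call of C17C3.1 was lost without mes-3 library 1, 2 or 3 or him-8 library 3, and that of his-37 without mes-3 library 2 or 3 or him-8 library 2. With total-count scaling 5 members were higher and 1 lower, and 463 of all identifiers were higher and 270 lower (271 and 594 with TMM scaling). The median log2 fold change was then 0.36 over the members tested and 0.33 over all identifiers, against 0.09 and 0.06 with TMM scaling.

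The comparison of male with oogenic germlines, 6 libraries of N2 and him-8 against 6 of fem-2 and N2, places the members by sex. Of 156 members tested 45 were higher in males (28.8%, background 45.3%) and 85 were lower (54.5%, background 29.6%). DESeq2, which tested all 300 members, called 25% higher (background 23.7%) and 35% lower (background 12.2%), so the shortfall in higher calls depended on the fit. By chromosome, 61 of 78 X-linked members tested were lower in males (78.2%), near the 73.4% of all 594 X-linked identifiers tested, and 9 were higher (11.5% against 10.8%). Of 77 autosomal members tested 36 were higher (46.8%) and 23 lower (29.9%), near the background of all identifiers. The median log2 fold change was -2.71 for X-linked members, 0.29 for autosomal members and 0.25 over all identifiers. With total-count scaling, under which the median of all identifiers was -0.55 and 2442 of all identifiers were higher and 4746 lower (3900 and 2550 with TMM scaling), 38 members were higher and 99 lower.

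Lower in males by the smallest adjusted p were C25A11.2, meg-2 and T01G5.7. C25A11.2 on the X had 0 to 1.08 CPM (median 0) in males and 15.8 to 29.5 CPM (median 22.9) in oogenic germlines (log2 fold change -6.35 ± 0.53 (SE), edgeR adjusted p = 4.15e-08). For meg-2, whose levels are given above, the difference was of similar size (log2 fold change -5.90 ± 0.50 (SE), edgeR adjusted p = 4.99e-08). T01G5.7 on V had 0 to 0.54 CPM (median 0) in males and 9.62 to 18.5 CPM (median 11.3) in oogenic germlines (edgeR adjusted p = 7.6e-08). The libraries of the sexes did not overlap for 81 of the 85. This was not counted over all identifiers called, so nothing particular to the members is read from it or from the like count below. Highest in significance among those higher in males were ZK354.2 (log2 fold change 10.69 ± 0.31 (SE), edgeR adjusted p = 1.89e-13), cdh-5 (8.24 on the log2 scale) and apm-1 (7.10). The libraries did not overlap for 29 of the 45 that were higher, and among the others are pat-10, mlc-2, unc-87 and mup-2, whose male levels were highest in him-8 library 2 and N2 library 1, the male libraries with the most muscle marker RNA.

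**Figure D5:**
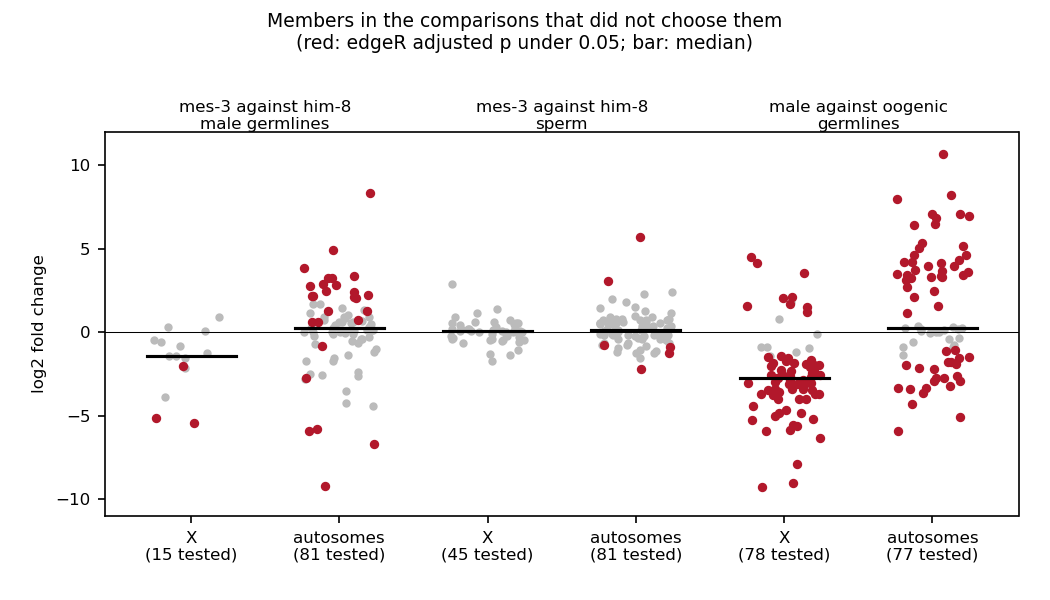
Log2 fold change of each member that passed the count filter, X-linked and autosomal apart, in the 3 comparisons with calls (mes-3 against him-8 male germlines, mes-3 against him-8 sperm, male against oogenic germlines). Red points have an edgeR adjusted p under 0.05 and bars are medians. The median of the X-linked members is -2.71 in males against oogenic germlines, where 9 of the 78 were called higher, and 0.06 in sperm.

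The comparison of fem-2 with N2 oogenic germlines, the 2 normal oogenic references, had 187 members among 7874 identifiers tested. Of these 0 were called in either direction by edgeR (background 0.0508% higher and 0.114% lower) and 0 by DESeq2, with 8 at an unadjusted p under 0.05. The members' median log2 fold change was 0.09. The summed levels of the members were 1609 to 1842 CPM in fem-2 and 1622 to 1816 CPM in N2, so the references overlapped.

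The nuclear hormone receptor family, ligand-dependent transcription factors, had 7 members among 58 family genes at 5 CPM or more: nhr-2, nhr-19, nhr-22, nhr-28, nhr-31, nhr-42 and nhr-183. Over all identifiers at that level 3.81% were members. This family and the F-box A and arrestin-domain families below were taken up because each held at least 3 members. Nothing is therefore read from the family counts. nhr-22 had 48.9 and 43.5 CPM in M+P- germlines, against 27.1 and 14.5 CPM in M+P+ germlines, and 4.27 to 6.9 CPM (median 6.1) in oogenic germlines. nhr-31 had 15 and 14.7 CPM in M+P- germlines, against 4.89 and 5.43 CPM in M+P+ germlines, and at most 1.16 CPM in oogenic germlines. nhr-2 had 17.8 and 19.6 CPM in M+P- germlines, against 9.92 and 7.03 CPM in M+P+ germlines. The 4 others had 2.08 to 24.2 CPM in M+P- libraries, against 1.04 to 9.48 CPM in M+P+ libraries. In male against oogenic germlines nhr-2 and nhr-22 were lower (-1.77 and -2.71 on the log2 scale, edgeR adjusted p = 8.09e-05 and 1.6e-05), and nhr-19 was higher (2.70, edgeR adjusted p = 9.72e-07).

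The F-box A family, whose products are thought to recruit proteins to ubiquitin ligases, had 5 members among 30 at that level. fbxa-64 had 20.7 and 28.7 CPM in M+P- germlines, against 9.04 and 5.27 CPM in M+P+ germlines. fbxa-170 on the X had 15.9 and 11.9 CPM in M+P- germlines, against 5.78 and 4.31 CPM in M+P+ germlines, and 10.9 to 17 CPM (median 13) in oogenic germlines, so its M+P- libraries lay within the oogenic range and its M+P+ libraries below it. fbxa-83 had 4.76 and 12.2 CPM in M+P- germlines, against 1.19 and 1.28 CPM in M+P+ germlines, fbxa-67 had 5.86 and 5.65 CPM in M+P- germlines, against 1.48 and 3.03 CPM in M+P+ germlines, and fbxa-143 had 7.87 and 2.23 CPM in M+P- germlines, against 1.33 and 1.44 CPM in M+P+ germlines. Only fbxa-64 was called in mes-3 male germlines. fbxa-83 and fbxa-67 overlap exons of another gene, which makes their counts uncertain.

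Arrestin-domain genes had 4 members among 6 at that level. arrd-18 and arrd-19 lie side by side on V next to fbxa-64. arrd-18 had 24.2 and 26.7 CPM in M+P- germlines, against 7.85 and 6.39 CPM in M+P+ germlines, and at most 1.26 CPM in oogenic germlines. arrd-19 had 26.2 and 22.3 CPM in M+P- germlines, against 14.4 and 4.47 CPM in M+P+ germlines. arrd-4 had 12.3 and 5.94 CPM in M+P- germlines, against 1.78 and 2.08 CPM in M+P+ germlines, and arrd-25 had 16.3 and 13.5 CPM in M+P- germlines, against 8.3 and 5.11 CPM in M+P+ germlines. None of the 4 passed 4.87 CPM in a male germline library of any group.

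A cluster on the X, chosen after its values were seen, gave the identifiers AC8.3, AC8.4, AC8.10 and AC8.11. AC8.10 had 13.4 and 14.7 CPM in M+P- germlines, against 7.11 and 5.75 CPM in M+P+ germlines, and AC8.3 had 12.8 and 13.1 CPM in M+P- germlines, against 6.37 and 5.27 CPM in M+P+ germlines. The identifiers AC8.4 and AC8.11 had 6.04 to 8.77 CPM in M+P- libraries, against 0.59 to 2.24 CPM in M+P+ libraries. All 4 stayed at or under 2.53 CPM in the oogenic libraries. Genes of this cluster may share reads with each other, which makes the counts uncertain.

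Marker lists for other cell types were read beside the members, since gonad arms can carry soma. The 10 body wall muscle markers summed to 359 and 190 CPM in M+P-, against 175 and 147 CPM in M+P+ germlines, with 4 of 10 above and 1 below without overlap. Over the 28884 identifiers with a read in an offspring library, M+P- was above M+P+ without overlap for 13.9% and below for 19.2%. Neuronal markers summed to 237 and 153 CPM in M+P-, against 150 and 104 CPM in M+P+, with 2 of 10 above and 2 below. Somatic gonad markers summed to 126 and 77.0 CPM in M+P-, against 68.4 and 69.0 CPM in M+P+, with 2 of 8 above and 0 below. Intestine markers overlapped, at 186 and 73.5 CPM in M+P-, against 94.1 and 111 CPM in M+P+, with 1 of 10 above and 1 below. So did hypodermis and cuticle markers, at 41.4 and 29.4 CPM in M+P-, against 40.3 and 67.6 CPM in M+P+, with 0 of 10 above and 4 below, and the 2 coelomocyte markers never passed 4.89 CPM in the offspring. None of these markers was at 0 in all 4 offspring libraries. Of the somatic markers on these lists 2 were members, mlc-2 and pat-10, and the part of soma in the members' levels was not tested. In whole gonad arms, more cells of a type and more RNA per cell cannot be told apart.

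The muscle members show how the sample types differ. pat-10, which encodes body wall troponin C, had 15.7 and 6.69 CPM in M+P- germlines, against 3.85 and 1.6 CPM in M+P+ germlines. It had 2.13, 6.0 and 15.4 CPM in mes-3 and 12.6, 493, 23.9 and 22.7 CPM in him-8 male germlines, and 254, 509 and 855 CPM in mes-3 and 669, 325 and 559.6 CPM in him-8 sperm. mlc-2, a myosin light chain gene, had 11 and 3.71 CPM in M+P- germlines, against 1.93 and 2.24 CPM in M+P+ germlines. Oogenic germlines had 3.24 to 22.2 CPM (median 10.5) of pat-10 and 3.06 to 10.5 CPM (median 6.66) of mlc-2, so neither was apart from the oogenic libraries in both M+P- libraries. The other sarcomere genes among the members, named after their values were seen, were mup-2 (troponin T), tni-4 (a troponin I), clik-1 and unc-87 (calponin-related).

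On the stress response list hsp-70, an inducible heat shock gene, was the 1 member of 11. It had 10.3 and 7.73 CPM in M+P- germlines, against 3.41 and 2.4 CPM in M+P+ germlines. Its range was 0.18 to 1.69 CPM (median 0.89) in oogenic germlines and 3.68 to 6.15 CPM (median 4.45) in N2 and him-8 male germlines. hsp-70 was higher in male than in oogenic germlines (log2 fold change 3.30 ± 0.42 (SE), edgeR adjusted p = 5.01e-06). The lists of H3K27 and H3K36 methylation genes (9), X dosage compensation genes (11), oogenic germline genes (11) and homeobox genes (20) held no member. The homeobox list is not complete. Homeobox genes by name that it does not hold, ceh-41 on the X and ceh-74 on V, are members, with ratios of 5.32 and 3.52. In these lists the median ratios of M+P- to M+P+ among identifiers at 5 CPM or more were 1.05, 1.03, 0.93 and 1.23, beside 1.06 over all identifiers. Without overlap, M+P- was above M+P+ for 2, 2, 1 and 1 of their genes and below for 0, 0, 5 and 11, and of the 10 spermatogenesis markers 1 was above and 4 were below. Of the stress genes 3 were above and 3 below. These counts stand beside the 13.9% above and 19.2% below over all identifiers with a read, and nothing particular to these lists is read from them.

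Chromatin and signalling genes on the X, again chosen after their values were seen, had oogenic RNA and little in male germlines. lsd-1, a histone H3 lysine demethylase gene, had 84.2 and 54.2 CPM in M+P- germlines, against 35.1 and 23.5 CPM in M+P+ germlines, with 16 to 26.2 CPM (median 17.2) in oogenic germlines. hda-4, a class II histone deacetylase gene, had 50.5 and 33.6 CPM in M+P- germlines, against 19.8 and 15.5 CPM in M+P+ germlines, with 10.1 to 16.19 CPM (median 14.5). his-24, which encodes a linker histone, had 21.1 and 14 CPM in M+P- germlines, against 8.15 and 6.07 CPM in M+P+ germlines, with 5.9 to 8.61 CPM (median 7.4). Each was present in normal oogenic germlines, and its M+P- libraries were above every oogenic library. Of the M+P+ libraries, library 2 fell within the oogenic range for lsd-1 and hda-4, and both did for his-24.

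The signalling genes on the X were chosen in the same way. sem-5, a Grb2-type adaptor gene, had 54.4 and 34.2 CPM in M+P- germlines, against 21.8 and 19 CPM in M+P+ germlines, with 8.35 to 20.7 CPM (median 15.8) in oogenic germlines. vav-1, a guanine nucleotide exchange factor gene, had 43.4 and 30.8 CPM in M+P- germlines, against 16.9 and 10.9 CPM in M+P+ germlines, with 8.43 to 13.4 CPM (median 10.1). The kinase gene grk-1 had 62.1 and 51.1 CPM in M+P- germlines, against 32.1 and 19.2 CPM in M+P+ germlines, with 23.2 to 32 CPM (median 27.7). In each case the highest N2 or him-8 male germline library had less than the lowest oogenic library, at 1.23 CPM for sem-5, 2.7 CPM for vav-1 and 1.18 CPM for grk-1.

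A set of autosomal members, also chosen after their values were seen, is known from extracellular matrix and neurons. lam-3, a laminin alpha gene on I, had 104 and 66 CPM in M+P- germlines, against 43.3 and 18.7 CPM in M+P+ germlines, with 2.53 to 6.85 CPM (median 5.59) in oogenic germlines. lam-1, the laminin beta gene on IV, had 59.7 and 58.1 CPM in M+P- germlines, against 33.6 and 13.9 CPM in M+P+ germlines, with 16.9 to 26 CPM (median 22.5). unc-104, a kinesin that carries synaptic vesicle precursors, had 37.5 and 38.5 CPM in M+P- germlines, against 20.3 and 13.1 CPM in M+P+ germlines, with 2.88 to 6.49 CPM (median 3.22). mef-2, a MADS-box transcription factor gene, had 55.8 and 41.2 CPM in M+P- germlines, against 23.7 and 21.2 CPM in M+P+ germlines, with 1.64 to 4.14 CPM (median 2.93). For lam-3, unc-104 and mef-2 both offspring groups were above all oogenic libraries, while M+P+ values of lam-1 lay on both sides of them.

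Some metabolic members, chosen in the same way, had high levels in sperm. icl-1, the glyoxylate cycle enzyme gene, had 38.3 and 23.9 CPM in M+P- germlines, against 12.9 and 7.83 CPM in M+P+ germlines. In sperm it had 611, 418 and 302 CPM in mes-3 and 113, 279 and 246 CPM in him-8, and him-8 male library 2 had 114 CPM, against 5.21 to 7.91 CPM in the other him-8 male libraries. pmp-2, a peroxisomal ABC transporter gene, had 19.6 and 11.9 CPM in M+P- germlines, against 2.81 and 3.19 CPM in M+P+ germlines, with 48, 42.3 and 22.5 CPM in mes-3 and 8.14, 23.4 and 20.4 CPM in him-8 sperm. Oogenic germlines had at most 4.46 CPM of icl-1 and 0.86 CPM of pmp-2. The sperm libraries also carried intestine markers, at 1099 to 1186 CPM in mes-3 and 329 to 1010 CPM in him-8, and the part of such cells in these levels was not tested.

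Of the 300 members 286 are protein-coding, 5 are noncoding RNAs, 3 pseudogenes, 2 snRNAs and 2 snoRNAs, and 2 matched no current gene. The longest transcript of a member had a median exonic length of 1606.5 bases, against 1631 bases over all identifiers at this level, with 1777.5 bases for X-linked members and 2058.5 bases for the other X-linked identifiers. Exons of 100 members overlap those of another gene, 81 of them on the opposite strand and 26 on the same strand. HTSeq can count with or without strand, and which was used is not given in the sources, so reads of such pairs cannot be assigned to 1 gene with certainty. Among these are T19D12.4, lgmn-1, T16G1.9 and mef-2.

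Members were also counted by their neighbours in the order of expressed genes along each chromosome. Of 596 neighbour places next to members 56 (9.40%) were themselves members. On the X this was 14.3% of 224 places, where 14.2% of X-linked identifiers are members. On the autosomes it was 6.45% of 372 places, where 2.67% are members. There were 25 runs of adjacent members, the longest of 3: C44B7.5, C44B7.7 and pmp-2 on II, fbxa-64, arrd-18 and arrd-19 on V, and pssy-1, grk-1 and F19C6.2 on the X. Neighbouring genes can share a primary transcript or reads, and their part in these runs was not tested.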

How the data were processed

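RNA of dissected distal gonad arms or of sperm was extracted with Trizol, depleted of ribosomal RNA and sequenced as single-end reads in 25 libraries of 9 groups. The deposited values are raw counts per gene identifier, which the authors made by aligning reads with TopHat2 to the WS220 transcriptome and counting with HTSeq. Tool versions and the strand setting are not given in the sources used here. The 5 summary lines of each file were left out. Of these, reads without a feature came to 3.55 to 18.8% of the gene counts and summary lines together.

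CPM were computed from the gene counts. The members and the gene lists were chosen with earlier results of these data known. Comparisons used the quasi-likelihood F test of edgeR 4.0.16 in R 4.3.3 with TMM factors, its default filter on low counts, only the compared groups, no covariate and Benjamini-Hochberg adjustment over all identifiers tested, at 0.05. The test was checked on simulated counts, with the same fixed spread for all genes and changes planted only in well-counted genes. That check does not cover members with low counts or the spread of these replicates. DESeq2 1.42.0, other scalings, no filter, a replicate block and left-out libraries were tried as alternatives. Since the labels do not say that replicates were separate cultures, p-values measure only the spread between these samples. All 24 replicate pairs differed by more than sampling noise (chi-square per degree of freedom 2.69 to 45.1).

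Names and chromosomes came from a current annotation of another build, WBcel235, by identifier, and 44933 of 45461 identifiers matched 1 gene. No coordinates are given. Genes named were the 10 highest ratios, the 8 highest mean CPM, the lowest adjusted p per comparison (up to 5 each way in male germlines and 3 each way in the others), members on a list or in a family of at least 3 members, and those next to the threshold. Genes outside this rule are said to be chosen after their values were seen.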

Additional observations from a re-analysis of the deposited data

Results flagged for a closer look

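The him-8 male germlines were the only group of 4 libraries. There, 13 of 29 values looked at had 1 library farther from the rest than Dixon's 95% limit. A gene was looked at only if its highest him-8 male library reached 5 CPM, and all values share the same 4 libraries. The usual rate of about 1 in 20 therefore does not apply, and nothing is read from this count. The summed CPM of the X-linked members had a ratio of gap to range of 0.99, with 1141 CPM in library 2. Among genes of that library the ratios were 1.0 for nhr-28, 0.976 for pat-10, 0.976 for mlc-2, 0.957 for his-37, 0.944 for puf-9 and 0.937 for tts-1. They were 0.902 for rpl-11.2, 0.889 for mdl-1, 0.887 for ttr-45, 0.855 for F52D4.1 and 0.852 for eef-1A.2. In all of these library 2 was the highest. For C17C3.1 the ratio was 0.888 and library 1 was the lowest, at 25.4 CPM.

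For 2 members every mes-3 library lay on one side of the him-8 libraries in male germlines and on the other side in sperm, and the difference between these effects was not tested. C17C3.1 had at least 37.03 CPM in mes-3, against at most 36.98 CPM in him-8 male germlines, a difference of means of 12.1 CPM, while it fell in mes-3 sperm. F52D4.1 had 1.63, 0.53 and 0.5 CPM in mes-3, against 23.3, 105, 26.6 and 13.3 CPM in him-8 male germlines, a difference of -41.3 CPM. In sperm it had 3.16, 11.5 and 3.21 CPM in mes-3, against 2.54, 3.05 and 1.3 CPM in him-8, near the level of 3 counts.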

How the results depend on the processing

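No call of a named gene changed sign under any alternative run, but the balance of higher and lower counts turned in places. In mes-3 against him-8 male germlines, where 22 members were higher and 9 lower, 13 were higher and 15 lower with him-8 controls of 1 run (replicates 1 and 2). With no count filter 24 of 298 tested were higher, or 8.05% beside 4.49% of all identifiers. There 23 were lower, or 7.72% beside 7.76%. Leaving out 1 library gave 13 to 32 higher and 5 to 12 lower. The shares were 11.5 to 32.3% higher beside 3.91 to 15.6% of all, and 4.42 to 11.1% lower beside 6.41 to 17.1%. In sperm, where 2 were higher and 4 lower, total-count scaling gave 5 and 1, or 3.94% beside 5.50% of all and 0.79% beside 3.21%. No count filter gave 4 higher there, or 1.38% beside 2.30%. Leaving out 1 sperm library gave 1 to 2 higher, or 0.64 to 1.36% beside 0.90 to 3.35%. It gave 1 to 5 lower, or 0.68 to 3.21% beside 2.25 to 6.15%. In male against oogenic germlines 45 were higher (28.8% beside 45.3% of all) and 85 lower (54.5% beside 29.6%). DESeq2 called 75 higher, or 25% beside 23.7%, and no filter gave 69, or 23% beside 24.9%. The members' shortfall in higher calls was thus small or absent in these fits. Lower calls stayed more frequent, at 35% beside 12.2% with DESeq2 and 40.3% beside 14.7% with no filter. Leaving out 1 library gave 39 to 45 higher, or 23.3 to 29% beside 36.9 to 45.4%. It gave 75 to 102 lower, or 53.1 to 60% beside 30.3 to 35.4%. In fem-2 against N2 oogenic germlines, where 0 were called, no filter gave 1 higher and 2 lower. These were 0.33% beside 0.39% of all identifiers and 0.67% beside 0.15%. Leaving out 1 library there gave 0 higher and 0 to 1 lower, at most 0.54% beside 1.18% without N2 library 3. DESeq2 and the fit with no filter tested more identifiers, and the cause of the other shifts was not tested.

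The labels do not say that replicate numbers pair the samples. Deviations of same-numbered libraries correlated at -0.10 to 0.21 and in no comparison of 3 pairs above 0.1 in each, and the 2 pairs of offspring libraries cannot settle it there. With a replicate block the count of members higher was 11 in mes-3 against him-8 male germlines, or 11.3% beside 6.63% of all. The count lower was 1 in sperm, or 0.79% beside 3.26%. In M+P- against M+P+ 543 identifiers were called with the block, against 0 without it.

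Without the block that count was 134 by DESeq2, 15 with no filter and 23 to 583 with 1 library left out, where a lone library is assumed to vary like the other group. The rule itself was met by 134 identifiers at a ratio of 2, by 740 at a mean of 1 CPM and by 475 to 1619 with 1 library left out (1619 without M+P- library 2, 1275 without M+P+ library 1 and 666 without M+P+ library 2), against 376. Of the 300 members 94 to 223 were again taken with 1 library left out, the fewest without M+P- library 2. The X-linked percent was 30.7% at a mean of 1 CPM and 28.7 to 48.7% with 1 library left out, against 37.3%.

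Among named genes, calls lost in some alternative were cdh-5, eef-1A.2 and mlc-2 in mes-3 male germlines (highest adjusted p = 0.157 for cdh-5, edgeR), ttr-45, C17C3.1 and his-37 in sperm (highest 0.164 for ttr-45), and F52D4.1, eef-1A.2 and rpl-11.2 in male against oogenic germlines. Depth limits the low members: 3 counts are worth up to 2.78 CPM in N2 oogenic library 1, so levels near 0 there allow that much.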
